A study of Homo sapiens with 12 samples.

Results

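Transcripts of 10 genes that carry and feed back on signalling from insulin and IGF receptors were examined in 2 Ewing sarcoma cell lines. They were the receptors IGF1R and INSR, the docking proteins IRS1 and IRS2, the PI3K subunits PIK3CA and PIK3R1, the PI3K-interacting protein PIK3IP1, the kinase MTOR and the transcription factors FOXO1 and FOXO3. Members were taken by gene symbol, and a probe was kept when its detection p-value was under 0.05 on at least 3 of the 12 arrays. By this rule 8 of the 10 genes were measured, of 12171 genes in all, through 10 of their 16 probes. PIK3CA is not analysed here, for want of a probe annotated with that symbol. The single INSR probe was detected on 2 of 12 arrays and failed the filter, with log2 intensities between 4.09 and 4.48, at the level of background.

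TC32 and SKNMC are established lines of Ewing sarcoma, a tumour of bone or soft tissue defined by fusions between EWSR1 and ETS family genes. Cells of each line were kept for 48 h in DMSO at 0.1% (v/v), the vehicle, or in 40 µM NU7441, and RNA was hybridised to Illumina BeadChips, with 3 arrays in each of the 4 groups. NU7441 is a small molecule that inhibits PRKDC, the catalytic subunit of DNA-dependent protein kinase. No label ties the replicates to separate cultures, so the p-values reflect a spread that may be technical. In bulk RNA, fewer cells of a type and less RNA per cell cannot be told apart.

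Receptors for IGF1 and insulin phosphorylate IRS1 and IRS2, which recruit PI3K to the membrane. The lipid that PI3K makes leads to activation of the kinase AKT, which raises mTOR complex 1 activity and keeps FOXO factors out of the nucleus. FOXO factors that enter the nucleus when the pathway is low are known to raise transcription of pathway genes such as INSR and IRS2, a feedback loop. PI3K, mTOR and the DNA-dependent protein kinase have related catalytic domains, and NU7441 is known to inhibit mTOR and PI3K at concentrations above those needed for its main target. IGF1R signalling is known to sustain the growth of Ewing sarcoma cells.

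Between 17944 and 20148 probes were detected on an array. The treated SKNMC arrays split, with a correlation across genes of 0.993 between replicates 2 and 3 but of 0.959 and 0.958 between each of these and replicate 1. The 28S ribosomal RNA probe read log2 12.33 and 12.42 on SKNMC NU7441 replicates 2 and 3 and 12.69 on TC32 NU7441 replicate 3. It read 4.33 on SKNMC NU7441 replicate 1, 8.26 and 9.33 on the other TC32 NU7441 arrays, and between 4.17 and 5.13 on the 6 vehicle arrays. Results are therefore also given without the 3 arrays above 12, in a fit that gives the single remaining SKNMC NU7441 array the spread of the other groups. Ewing sarcoma markers were detected on all 6 arrays of a line for 10 of 12 genes in TC32 and 9 of 12 in SKNMC, while no endothelial marker of 5 was detected on any array. Of 6 leukocyte markers with a probe, PTPRC, CD3E and FCER1G were detected on no array. By contrast CD68, also a lysosomal protein of other cells, was detected on all 12 arrays and rose with NU7441 in both lines. CD14 was detected on 6 TC32 and 2 SKNMC arrays and LYZ on 1 SKNMC array. Of 5 epithelial markers, CDH1 and KRT5 were detected on no array and KRT18 on 5 arrays of each line, and KRT18 fell in SKNMC. EPCAM was detected on 3 arrays of each line and KRT8 on 3 SKNMC arrays. Of 11 measured genes on the Ewing sarcoma marker list, 2 fell with NU7441 in TC32, LIPI and PRKCB. In SKNMC 5 fell: CAV1, IGFBP3, LIPI, PRKCB and STEAP1. Each marker said to rise, fall or be lower passed a limma adjusted p under 0.05 and an absolute log2 difference of at least 1. By that rule 3.91% of all genes fell in TC32 and 5.64% in SKNMC. Under vehicle 2.88% of all genes were lower in TC32 than in SKNMC. Of 8 fibroblast markers, 2 fell in TC32 and 4 in SKNMC, and 4 were lower in TC32 than in SKNMC under vehicle, with COL1A2, DCN, LUM and FAP detected on no TC32 array. The fibroblast markers' mean log2 level over 8 genes ranged from 5.25 to 5.36 on vehicle arrays and from 4.60 to 4.78 on NU7441 arrays in TC32, and from 6.76 to 6.99 and from 5.56 to 5.85 in SKNMC. The part of these markers and of the 28S signal in the results below was not tested.

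The docking proteins gave the clearest contrast among the members: with NU7441 IRS1 fell in both lines while IRS2 was higher in both. IRS1 and IRS2 link the IGF1 and insulin receptors to PI3K, and IRS2 is known as a FOXO target in mouse liver. The 250 bases upstream of each annotated start, from RefSeq on GRCh38.p14, are shown because these paralogs went opposite ways. Both genes lie on the minus strand, and the windows, chr2:226799821-226800070 for IRS1 and chr13:109786584-109786833 for IRS2, are written 5′ to 3′ along the gene. Capitals mark a match to TGTTTTG, the core of the insulin response element that FOXO factors bind.
IRS1: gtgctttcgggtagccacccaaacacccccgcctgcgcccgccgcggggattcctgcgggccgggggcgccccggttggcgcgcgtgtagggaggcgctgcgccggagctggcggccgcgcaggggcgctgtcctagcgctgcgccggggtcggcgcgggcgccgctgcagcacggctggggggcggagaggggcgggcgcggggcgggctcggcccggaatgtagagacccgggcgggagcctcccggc
IRS2: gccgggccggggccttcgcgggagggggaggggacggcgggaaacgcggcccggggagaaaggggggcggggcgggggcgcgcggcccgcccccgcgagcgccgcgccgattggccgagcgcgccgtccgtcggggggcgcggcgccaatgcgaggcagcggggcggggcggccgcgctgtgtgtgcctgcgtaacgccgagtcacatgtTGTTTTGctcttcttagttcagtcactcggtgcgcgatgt
Both strands were searched for TGTTTTG, for the FOXO element TGTTTAC and for the E-box CACGTG. In the 16 windows of the 9 members with a probe on the array, a single match was found, the TGTTTTG of IRS2, 40 bases upstream of its start. PIK3CA, which had no probe of that symbol, was not searched. Of 35116 windows of the same length over all genes, 4.3% held TGTTTTG, 2.98% held TGTTTAC and 6.34% held CACGTG. A match describes these letters only, and binding was not measured.

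IRS1 (probe ILMN_1759232) read log2 6.39, 6.32 and 7.25 in TC32 vehicle and 5.69, 5.41 and 5.21 in TC32 NU7441. In SKNMC it read 6.62, 6.78 and 6.71 in vehicle and 6.05, 5.07 and 5.30 with NU7441. Every NU7441 array lay below every vehicle array of its line, and SKNMC NU7441 replicate 1 was the highest treated array. The log2 difference was -1.21 ± 0.26 (SE, n = 3 and 3) in TC32, a 2.32-fold fall (limma adjusted p = 0.00403). In SKNMC it was -1.23 ± 0.26, a 2.34-fold fall (limma adjusted p = 0.00291). A gene was called at a limma adjusted p under 0.05 and an absolute log2 difference of at least 1, a 2-fold change, and IRS1 was the 1 called member of 8 in either line. Over all genes, 3.91% were called lower and 2.56% higher in TC32, and 5.64% lower and 3.44% higher in SKNMC.

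The call in SKNMC rested on replicates 2 and 3: without the 3 arrays of high 28S signal the difference there was -0.65 ± 0.27 (limma adjusted p = 0.109), against -1.10 ± 0.22 in TC32 (limma adjusted p = 0.00105). In TC32 the vehicle array of replicate 3 was the highest, and without it the difference was -0.92, under the 2-fold minimum (limma adjusted p = 0.0187). Without background correction, IRS1 stood at -0.64 in each line (limma adjusted p = 0.0113 in TC32 and 0.00983 in SKNMC). The responses of the lines differed by 0.02 ± 0.37 for IRS1 (95% interval -0.78 to 0.81). A difference of either sign inside that interval would be compatible with these arrays. The genes nearest to IRS1 over the 12 arrays, each centred on its own mean, were the amino acid transporter SLC38A5 at a root mean square distance of 0.16 on the log2 scale, the histone kinase HASPIN at 0.21 and the actin-binding protein gene ABLIM1 at 0.22. SLC38A5 stood at -1.12 in TC32 and -1.35 in SKNMC.

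IRS2 (probe ILMN_2083469) read 6.12, 6.33 and 6.92 in TC32 vehicle and 7.18, 7.18 and 6.90 with NU7441. In SKNMC it read 9.98, 10.13 and 10.34 in vehicle and 10.64, 11.20 and 11.07 with NU7441. The TC32 groups overlapped at a single pair of arrays, both replicate 3, and the SKNMC groups did not overlap. IRS2 was higher with NU7441 by 0.63 ± 0.21 in TC32 (limma adjusted p = 0.0369) and by 0.82 ± 0.21 in SKNMC (limma adjusted p = 0.00806), both under the 2-fold minimum. Without the 3 arrays the values were 0.73 ± 0.19 (limma adjusted p = 0.00886) and 0.49 ± 0.25 (limma adjusted p = 0.187). The larger contrast was between the lines: under vehicle IRS2 was 12.9-fold lower in TC32 than in SKNMC, by a log2 difference of -3.69 ± 0.21 (limma adjusted p = 1.71e-08). All 6 SKNMC arrays, treated or not, lay above all 6 TC32 arrays, as the plot of levels by array shows.

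**Figure D1:**
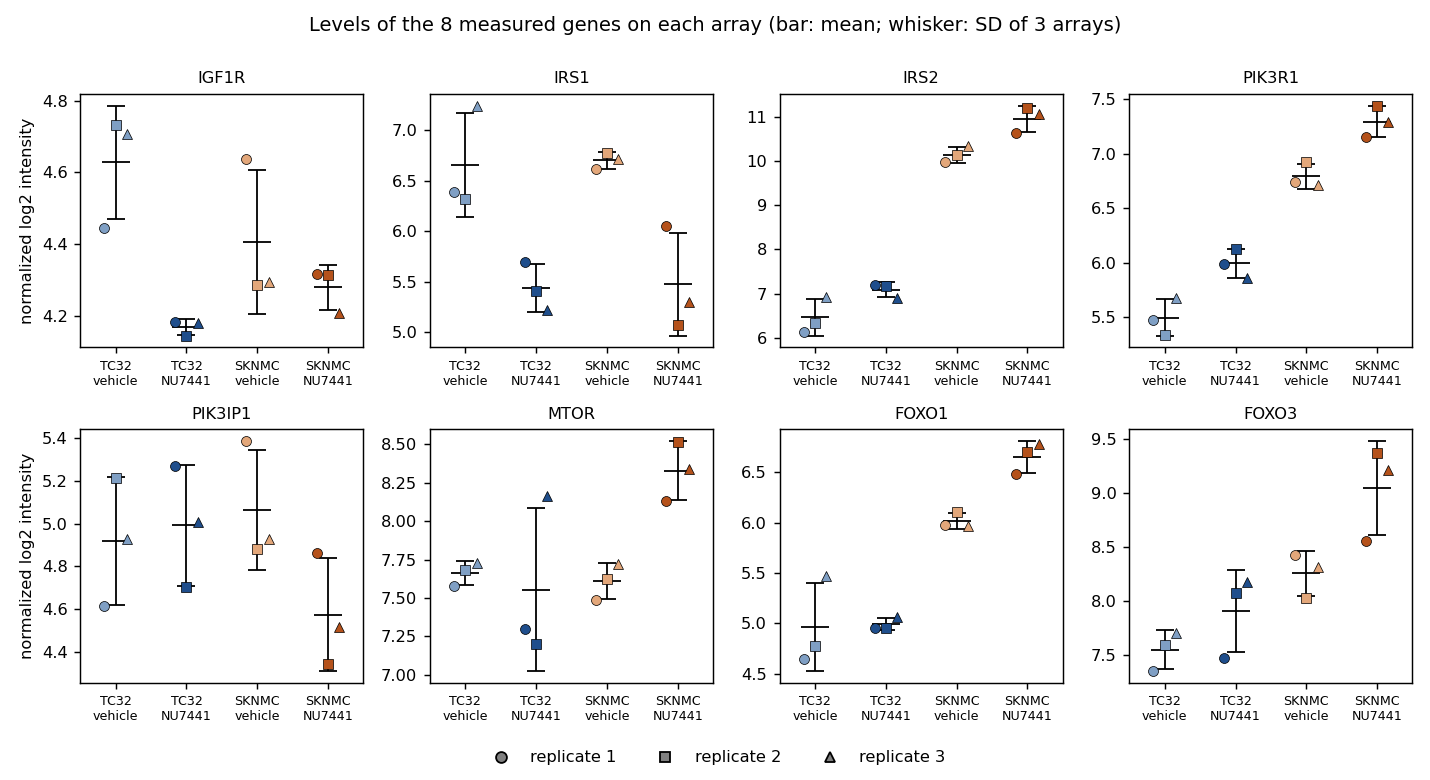
Normalized log2 intensity (vertical axis) of the 8 measured genes on each of 12 arrays, in 4 groups of 3, where the horizontal bar is the group mean, the whisker its SD and the marker shape the replicate number. The scales differ between panels. IRS1 drops from 6.32 or more in every vehicle array to 6.05 or less with NU7441, and IRS2 separates the lines, with TC32 at 7.18 or less and SKNMC at 9.98 or more.

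The receptor IGF1R was near background throughout. Its probe was detected on 2 of 3 TC32 vehicle arrays, 1 of 3 SKNMC vehicle arrays and no NU7441 array of either line. It read 4.45, 4.73 and 4.71 in TC32 vehicle and 4.18, 4.14 and 4.18 with NU7441, groups that did not overlap. The probe passed the filter through vehicle arrays alone, so the measured difference of -0.46 in TC32 is a description with no test. In SKNMC it read 4.64, 4.29 and 4.29 in vehicle and 4.32, 4.31 and 4.21 with NU7441, with overlap and a difference of -0.13. INSR was detected on 1 SKNMC vehicle array and 1 SKNMC NU7441 array and on no TC32 array.

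Of the PI3K genes, PIK3R1 was higher with NU7441 by a like amount in both lines. PIK3R1 encodes p85α, the regulatory subunit that docks on IRS proteins and holds the catalytic subunit. It read 5.48, 5.34 and 5.67 in TC32 vehicle and 5.99, 6.13 and 5.86 with NU7441 (probe ILMN_1760303). In SKNMC it read 6.75, 6.92 and 6.71 in vehicle and 7.16, 7.44 and 7.29 with NU7441. Groups did not overlap in either line, nor did the lines. The difference was 0.50 ± 0.14 in TC32 (limma adjusted p = 0.0183) and 0.50 ± 0.14 in SKNMC (limma adjusted p = 0.0145), and the interval on the difference between these responses was -0.43 to 0.42. Without the 3 arrays it was 0.56 ± 0.14 in TC32 (limma adjusted p = 0.00659) and 0.36 ± 0.18 in SKNMC (limma adjusted p = 0.184). Under vehicle PIK3R1 was 2.45-fold lower in TC32 than in SKNMC, at -1.29 ± 0.14 (limma adjusted p = 1.76e-05). The other 4 PIK3R1 probes, some of them matched to other transcripts, were detected on 1 array or none.

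PIK3IP1, a membrane protein known to restrain the catalytic subunit, read 4.62, 5.22 and 4.93 in TC32 vehicle and 5.27, 4.70 and 5.01 with NU7441. PIK3IP1 in SKNMC read 5.39, 4.88 and 4.93 in vehicle and 4.86, 4.34 and 4.52 with NU7441. The groups overlapped in TC32, where the difference was 0.07 ± 0.21 (limma adjusted p = 0.847). In SKNMC every NU7441 array lay below every vehicle array, by a narrow margin, at -0.49 ± 0.21 (limma adjusted p = 0.0842). Neither difference passed the test.

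MTOR, the kinase of both mTOR complexes, had the largest gap between the lines' responses among the members. It read 7.58, 7.68 and 7.73 in TC32 vehicle and 7.30, 7.20 and 8.16 with NU7441 (probe ILMN_1769031). The SKNMC arrays read 7.49, 7.62 and 7.72 in vehicle and 8.13, 8.52 and 8.34 with NU7441. The vehicle levels of the lines overlapped, the SKNMC groups separated, and in TC32 replicates 1 and 2 lay below vehicle while replicate 3, the array of high 28S signal, lay above. MTOR was higher by 0.72 ± 0.21 in SKNMC (limma adjusted p = 0.0181) and stood at -0.11 ± 0.21 in TC32 (limma adjusted p = 0.768). The difference of responses, TC32 minus SKNMC, was -0.83 ± 0.30 and did not pass the test over all genes (limma adjusted p = 0.159, unadjusted p = 0.0144).

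The TC32 value depended on that array. Without the 3 arrays MTOR stood at -0.41 ± 0.13 in TC32 (limma adjusted p = 0.0263) and 0.52 ± 0.17 in SKNMC (limma adjusted p = 0.0422), and the responses differed by -0.93 ± 0.22 (limma adjusted p = 0.0211), still under the 2-fold minimum. Leaving out TC32 NU7441 replicate 3 alone gave a called difference of -1.13 (limma adjusted p = 0.00528). With median scaling in place of quantile normalization it was -1.10 (limma adjusted p = 0.026), where the median of all genes itself stood at -0.16.

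**Figure D2:**
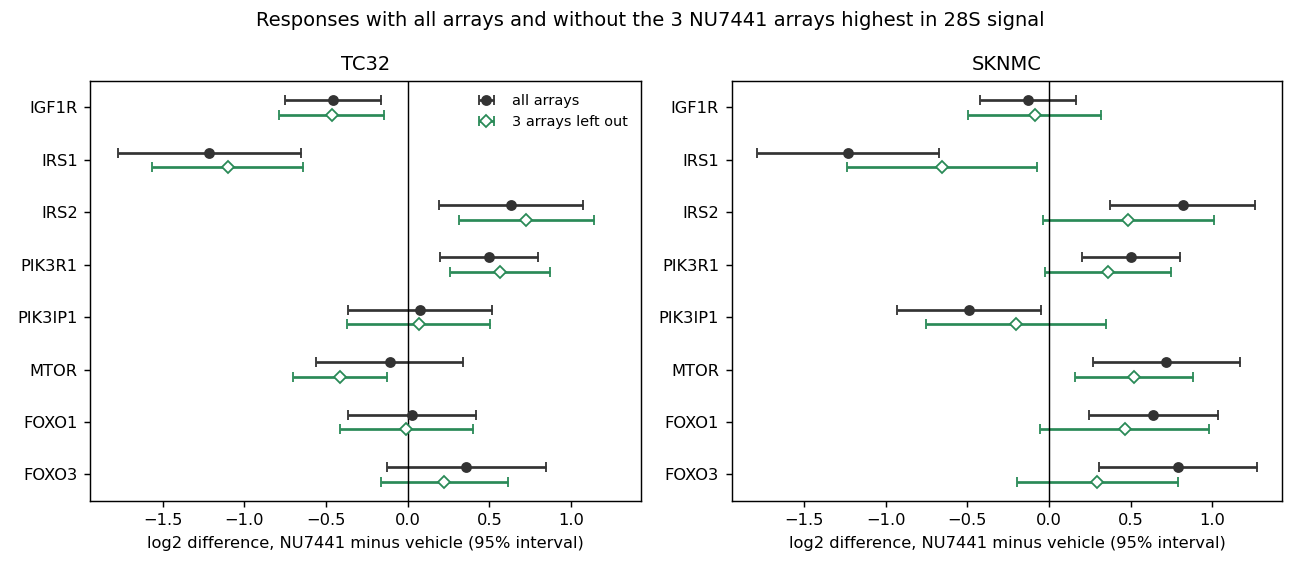
Log2 difference, NU7441 minus vehicle, of the 8 genes with its 95% interval (horizontal axis), for TC32 (left) and SKNMC (right), from all 12 arrays (filled circles) and without the 3 NU7441 arrays of highest 28S signal (open diamonds). In SKNMC the IRS1 value moves from -1.23 to -0.65 and the FOXO3 value from 0.79 to 0.30, while in TC32 MTOR moves from -0.11 to -0.41. The IGF1R probe passed the filter through vehicle arrays alone, so its intervals are not a test.

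The FOXO factors, which AKT keeps in the cytoplasm, were higher with NU7441 in SKNMC. FOXO1 (probe ILMN_1738816) read 5.97, 6.11 and 5.97 in SKNMC vehicle and 6.48, 6.70 and 6.79 with NU7441. In TC32 it read 4.65, 4.78 and 5.47 in vehicle and 4.96, 4.96 and 5.06 with NU7441. The SKNMC groups separated, and in TC32 the treated arrays lay inside the vehicle range. FOXO1 was higher by 0.64 ± 0.18 in SKNMC (limma adjusted p = 0.0166), under the 2-fold minimum, and stood at 0.03 ± 0.18 in TC32 (limma adjusted p = 0.941). The responses differed by -0.61 ± 0.26, which did not pass the test (limma adjusted p = 0.241). Under vehicle FOXO1 was 2.07-fold lower in TC32, at -1.05 ± 0.18 (limma adjusted p = 0.00124). That call slipped under the minimum fold when TC32 vehicle replicate 1 (-0.89) or TC32 vehicle replicate 2 (-0.96) was left out.

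FOXO3 had 3 detected probes. The brightest, ILMN_1681703, read 8.43, 8.02 and 8.31 in SKNMC vehicle and 8.55, 9.37 and 9.22 with NU7441, and 7.35, 7.59 and 7.70 in TC32 vehicle and 7.47, 8.07 and 8.18 with NU7441. SKNMC NU7441 replicate 1 lay just above vehicle and replicates 2 and 3 well above it, and the TC32 groups overlapped. The difference was 0.79 ± 0.23 in SKNMC (limma adjusted p = 0.0162) and 0.36 ± 0.23 in TC32 (limma adjusted p = 0.279). That SKNMC value was 0.30 ± 0.23 without the 3 arrays (limma adjusted p = 0.422). For FOXO1 in SKNMC that fit gave 0.47 ± 0.24 (limma adjusted p = 0.205).

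A second FOXO3 probe read 7.64, 7.72 and 7.60 in SKNMC vehicle and 7.74, 8.17 and 8.29 with NU7441, again with replicate 1 nearest to vehicle. Its difference was 0.42 ± 0.17 in SKNMC (limma adjusted p = 0.0783) and 0.06 ± 0.17 in TC32 (limma adjusted p = 0.855). The remaining detected FOXO3 probe lay between 4.18 and 4.73, near background.

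At an adjusted p under 0.05 with no minimum fold, 2 members were higher (PIK3R1 and IRS2) and 1 lower (IRS1) in TC32, with IGF1R left out of the count, where 11.9% of all genes were higher and 13.4% lower. In SKNMC 5 were higher (MTOR, PIK3R1, IRS2, FOXO1 and FOXO3) and 1 lower (IRS1), where 15% of all genes were higher and 16.9% lower. The lines share no arrays, though the fit gives both the same spread per gene. The median log2 difference over the 8 members, IGF1R included, was 0.05 in TC32 and 0.57 in SKNMC, against 0.00 over all genes in each. Without the 3 arrays, MTOR was the 1 member past that p in SKNMC. Without between-array normalization PIK3R1 and IRS2 stood at 0.19 and 0.20 in TC32, each 0.45 above the median of all genes.

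**Figure D3:**
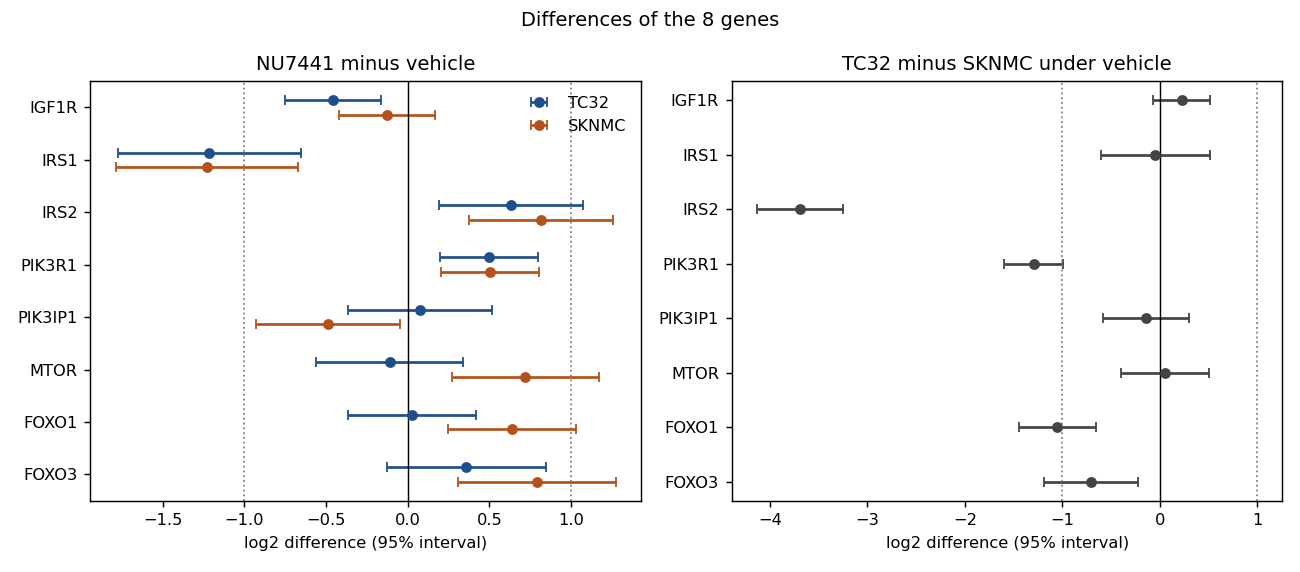
Log2 differences of the 8 genes with 95% intervals (horizontal axes), NU7441 minus vehicle in each line (left) and TC32 minus SKNMC under vehicle (right), with dotted lines at the 2-fold minimum. IRS1 lies at -1.21 and -1.23, the other responses lie inside the dotted lines, and between lines IRS2 stands apart at -3.69. The IGF1R probe passed the filter through vehicle arrays alone, so its response intervals are not a test.

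Between the lines under vehicle, 3 members were called lower in TC32 (IRS2, PIK3R1 and FOXO1) and 0 higher, where 2.88% of all genes were called lower and 1.37% higher. Without background correction the line differences of PIK3R1 and FOXO1 were -0.70 and -0.44, under the 2-fold minimum. FOXO3 was at -0.71 ± 0.23, under the 2-fold minimum, and did not pass the test (limma adjusted p = 0.0503), and its second probe was at -0.68 (limma adjusted p = 0.0156). IRS1, MTOR, PIK3IP1 and IGF1R had differences between -0.15 and 0.22 that did not pass the test. In the test of whether the lines responded differently, 0 members were called, where 1.32% of all genes were called for a response higher in TC32 than in SKNMC and 0.526% for a lower one. At an unadjusted p under 0.05 in limma the members past it were MTOR and FOXO1. The share of all genes past that unadjusted p was not counted.

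The surrounding pathway was described with 7 lists of 142 further genes, 114 of them measured: PI3K subunits and lipid phosphatases, receptors and adaptors, AKT-level kinases, mTOR complexes with TSC and RAG sensing, mTORC1 outputs, FOXO factors and targets, and PI3K-related protein kinases. In TC32 5 of the 114 rose and 4 fell, where 2.56% of all genes rose and 3.91% fell. In SKNMC 9 rose and 7 fell, where 3.44% of all genes rose and 5.64% fell. At these rates the falls lay near the general share. The median over the 114 was 0.08 in TC32 and -0.01 in SKNMC, against 0.00 over all genes in each. None of the 12 measured PI3K subunits and lipid phosphatases and none of the 15 receptors, ligands and adaptors was called in either line. Named first are the 4 largest rises and falls per line.

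The mTOR complex and nutrient-sensing list, 28 measured genes, had 2 rises and 2 falls in TC32 (all genes: 2.56% and 3.91%) and 4 of each in SKNMC (all genes: 3.44% and 5.64%). RRAGC and RRAGB encode RAG GTPases that bring mTOR complex 1 to the lysosome. RRAGC rose by 1.28 ± 0.16 in TC32 (limma adjusted p = 7.07e-05), from 6.94, 7.01 and 6.65 to 8.22, 8.40 and 7.83, groups that did not overlap, and by 1.30 ± 0.16 in SKNMC. RRAGB rose by 1.10 ± 0.19 in TC32 and by 1.47 ± 0.19 in SKNMC (limma adjusted p = 7.95e-05). FNIP1, a partner of folliculin in RAG control, rose by 1.33 ± 0.19 in SKNMC and stood at 0.90 ± 0.19 in TC32.

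DDIT4 and SESN2 encode inhibitors of mTOR complex 1 that are induced by stress. DDIT4 read 8.10, 7.90 and 8.81 in TC32 vehicle and 7.02, 6.87 and 5.64 with NU7441, and it fell by 1.76 ± 0.30 on the log2 scale (limma adjusted p = 0.000817). DDIT4 in SKNMC read 8.93, 9.11 and 9.12 in vehicle and 6.79, 6.77 and 6.76 with NU7441, and it fell by 2.28 ± 0.30 (limma adjusted p = 0.000106). All 6 treated arrays lay below all 6 vehicle arrays, including SKNMC NU7441 replicate 1, and without the 3 arrays the SKNMC value was -2.26. SESN2 fell by 1.08 ± 0.16 in TC32 and by 1.17 ± 0.16 in SKNMC, and it was detected on 1 of 3 NU7441 arrays in each line. PRR5L, a binding partner of mTOR complex 2, fell by 1.38 ± 0.23 in SKNMC and stood at -0.59 ± 0.23 in TC32.

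Of 14 measured mTORC1 substrates and translation outputs, 2 rose and 1 fell in TC32 (all genes: 2.56% and 3.91%) and 1 rose and 1 fell in SKNMC (all genes: 3.44% and 5.64%). ULK1, the kinase that starts autophagy and is restrained by mTOR complex 1, rose by 1.18 ± 0.18 in TC32 (limma adjusted p = 0.000332) and by 1.32 ± 0.18 in SKNMC (limma adjusted p = 0.000133). LPIN1, a phosphatidate phosphatase that mTOR complex 1 keeps out of the nucleus, rose by 1.16 ± 0.16 in TC32 and stood at 0.58 ± 0.16 in SKNMC. EIF4EBP1, the translation repressor that mTOR complex 1 phosphorylates, fell by 1.35 ± 0.23 in TC32 and stood at -0.95 ± 0.23 in SKNMC.

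Among 30 measured FOXO factors and target genes, 1 rose and 1 fell in TC32 (all genes: 2.56% and 3.91%), and 4 rose and 1 fell in SKNMC (all genes: 3.44% and 5.64%). KLHL24, a ubiquitin ligase adaptor, rose by 1.95 ± 0.29 in SKNMC (limma adjusted p = 0.000235) and stood at 0.71 ± 0.29 in TC32. GADD45B, a stress-response gene, rose by 1.20 ± 0.21 in TC32 and stood at 0.94 ± 0.21 in SKNMC, whereas its paralog GADD45A fell by 1.23 ± 0.16 in SKNMC and stood at -0.39 ± 0.16 in TC32. FBXO32, the ubiquitin ligase atrogin-1 and a FOXO target in mouse muscle, read 6.99, 6.92 and 6.76 in TC32 vehicle and 5.28, 5.61 and 4.81 with NU7441. It fell there by 1.66 ± 0.18 (limma adjusted p = 2.39e-05), while in SKNMC all 6 arrays lay between 5.38 and 5.71 and the difference was -0.05 ± 0.18. The median over this list was -0.11 in TC32 and -0.06 in SKNMC.

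SGK1, a kinase related to AKT, read 9.87, 9.92 and 9.93 in SKNMC vehicle and 10.07, 5.71 and 5.56 with NU7441. Replicate 1 lay above vehicle and replicates 2 and 3 far below it. The difference was -2.80 ± 0.80 (limma adjusted p = 0.0166) with all arrays and 0.16 without the 3 arrays, so its direction rested on replicates 2 and 3. It was the 1 gene called among 10 measured AKT, PDK1 and SGK kinases and their phosphatases in SKNMC, and 0 were called in TC32 (limma). Over all genes 3.44% rose and 5.64% fell in SKNMC, and 2.56% and 3.91% in TC32. The remaining calls of the lists, identified after their values were seen, were TSC2, ATG14, BNIP3L and SELENOP, which rose, and NPRL3 and EEF2K, which fell, all in SKNMC.

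When the 3 arrays were left out, the lists held 10 calls in TC32, where 2.35% of all genes were called higher and 4.09% lower. In SKNMC, with a single NU7441 array left, KLHL24 then stood at 1.04, RRAGB at 1.13, ULK1 at 0.99, FNIP1 at 0.86 and PRR5L at -0.67. The last 3 were under the 2-fold minimum. In TC32 the 4 largest rises were between 1.05 and 1.44 in that fit. The balance of directions depended on the normalization. With no between-array normalization, where the median of all genes was -0.25 in TC32 and -0.10 in SKNMC, 0 of the 114 were called higher and 10 lower in TC32, and 5 higher and 9 lower in SKNMC. The 4 largest rises in TC32 then stood between 0.62 and 0.97, under the 2-fold minimum. Over all genes the split of higher and lower calls was then 108 and 1298 in TC32 and 260 and 888 in SKNMC, against 312 and 476 and 419 and 686 here.

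**Figure D4:**
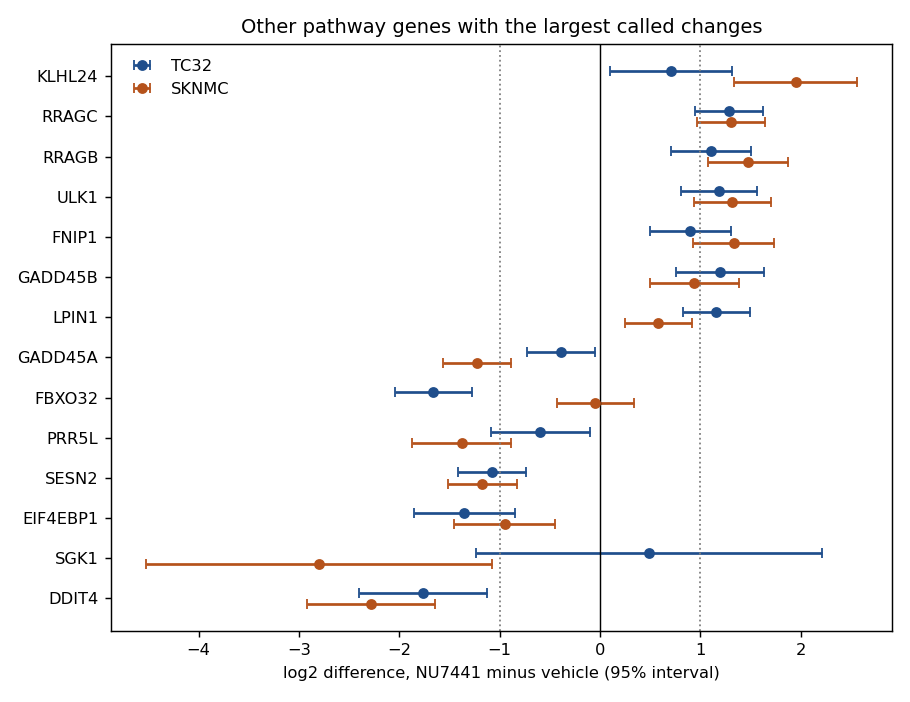
Log2 difference, NU7441 minus vehicle, with 95% intervals (horizontal axis) in TC32 and SKNMC for 14 pathway genes that had the 4 largest rises or falls in a line, with dotted lines at the 2-fold minimum. RRAGC, RRAGB and ULK1 lie above 1 and DDIT4 and SESN2 below -1 in both lines, and SGK1 has the widest intervals.

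The 5 PI3K-related protein kinases besides MTOR were measured as relatives of the drug's target, and 0 were called in either line. Over all genes 2.56% were called higher and 3.91% lower in TC32, and 3.44% and 5.64% in SKNMC. PRKDC, the target itself, read 8.04, 7.83 and 7.83 in TC32 vehicle and 7.40, 7.75 and 7.59 with NU7441, a difference of -0.32 ± 0.14 (limma adjusted p = 0.116), and stood at -0.14 ± 0.14 in SKNMC (limma adjusted p = 0.493). ATM, the kinase that responds to double-strand breaks, was higher by 0.63 ± 0.13 in TC32 (limma adjusted p = 0.00381) and by 0.58 ± 0.13 in SKNMC (limma adjusted p = 0.00487), under the 2-fold minimum. SMG1, a kinase of nonsense-mediated decay, was higher by 0.83 ± 0.23 in SKNMC (limma adjusted p = 0.0145) and stood at 0.60 ± 0.23 in TC32 (limma adjusted p = 0.0728). TRRAP, a kinase-like scaffold of acetyltransferase complexes, was higher by 0.50 ± 0.14 in TC32 (limma adjusted p = 0.0157) and stood at 0.24 ± 0.14 in SKNMC. ATR was detected on no NU7441 array and read 4.15 to 4.54 over all arrays.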

How the data were processed

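Total RNA of TC32 and SKNMC cells was profiled on Illumina BeadChips, 3 arrays in each of 4 groups. Groups and replicate numbers came from the sample titles. Every vehicle title, and no other, ends in an unexplained (2). If that stands for a separate run, run and treatment cannot be told apart. One deposited table gives bead intensity without normalization and a detection p-value for 47319 probes on 12 arrays, per the file headers. A second deposited table holds log2 values made by the submitters, with GenomeStudio, lumi and R 3.0.2 listed in the submitters' processing notes. Its medians were 6.32 on TC32 and 6.31 on SKNMC arrays, its transformation is unstated, and it was used as an alternative.

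Intensities were normalized with neqc of limma 3.58.1 in R 4.3.3 (negative controls inferred from the detection p-values, offset 16, quantile normalization, log2). Quantile normalization would hide a general shift of transcripts. Of all probes 30112 had 1 gene symbol, 8 several and 17199 none, and 30073 symbols were updated by gene number. Probes detected at p under 0.05 on at least 3 arrays were kept, 21753 in all, and the brightest stood for each of 12171 genes. One limma fit over 12 arrays had a mean per group and no covariate, tests were two-sided, and p-values were adjusted by Benjamini-Hochberg over all genes. Each gene's spread is shared by the 4 groups, so an SE can understate the spread in SKNMC NU7441. The fit was tested on simulated data. The number of arrays limits the precision. The members, the lists, the rules and the tests were chosen with earlier results of these data known. All members were to be named, with the 4 largest called rises and falls per line from the wider lists, every PI3K-related kinase, and the 3 genes nearest to a member called in both lines. Alternatives were other normalizations, filters, probe summaries and thresholds, the submitters' values, and arrays left out. No pairing by replicate number was seen: same-numbered arrays' deviations from their group means correlated between -0.06 and 0.06. With 3 arrays a group, this cannot settle whether same-numbered arrays shared a culture or day.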

Additional observations from a re-analysis of the deposited data

Results flagged for a closer look

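No member passed the test of the difference between the lines' responses, which with 3 arrays a group can miss a difference. MTOR came nearest, at -0.83 (limma adjusted p = 0.159), and was called at -1.13 when TC32 NU7441 replicate 3 was left out. In the test of the difference, 1.32% of all genes were called for a response higher in TC32 and 0.526% for a lower one. Among the 114 further pathway genes, 4 were called, by the interaction of line and treatment in limma (TC32 response minus SKNMC response). All of them but FBXO32, 3 genes, were identified after their values were seen. FBXO32 differed by -1.61 (limma adjusted p = 0.0044), with -1.66 in TC32 and -0.05 in SKNMC. SELENOP, a secreted selenium carrier and FOXO target, differed by -1.82 (limma adjusted p = 0.0154). It stood at -0.67 in TC32 and 1.15 in SKNMC, and without the 3 arrays of high 28S signal it differed by -1.01. CCNG2, a cyclin that FOXO factors are known to induce, differed by -1.07 (limma adjusted p = 0.0203), with -0.39 in TC32 and 0.67 in SKNMC. EEF2K, the kinase that slows translation elongation, differed by 1.25 (limma adjusted p = 0.0474), with 0.18 in TC32 and -1.07 in SKNMC. Leaving out single arrays gave adjusted p-values of 0.00113 to 0.0208 for FBXO32, 5.67e-06 to 0.0547 for SELENOP, 0.00394 to 0.0753 for CCNG2 and 0.00291 to 0.129 for EEF2K.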

How the results depend on the processing

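Over the 8 members, the 4 contrasts and all alternatives run, 668 of 684 values kept their direction where called and their side of the threshold, 12 lost a call and 4 gained one. Calls in the fit reported were IRS1 in each line and IRS2, PIK3R1 and FOXO1 between the lines under vehicle. All other values started uncalled, so the 668 says little about how firm the calls were. The 12 losses fell on those calls alone. Of the values not past the adjusted p, 42 crossed 0. Without background correction, and with the submitters' values, 0 members were called in either line and 1 between lines, and of the pathway genes 1 was called in TC32 and 4 in SKNMC. Calls over all genes were also fewer. Without background correction 0.739% of all genes were called higher and 1.3% lower in TC32, and 1.14% and 1.82% in SKNMC. With the submitters' values the shares were 0.764% and 1.3% in TC32 and 1.08% and 1.78% in SKNMC. With no fold minimum 4 members were called in TC32 and 6 in SKNMC, and 27 and 42 of the 114 pathway genes. At that setting 11.9% of all genes were higher and 13.4% lower in TC32, and 15% and 16.9% in SKNMC. Without the 3 arrays of high 28S signal, IRS1 in SKNMC stood at -0.65, under the 2-fold minimum, and SGK1 there reversed to 0.16. Without between-array normalization, or with median scaling, 1 member (MTOR) was called for the difference of responses. Over all genes the latter split the calls into 113 higher and 1193 lower in TC32, 262 and 885 in SKNMC, 83 and 209 for the difference and 246 and 345 between vehicles. With no between-array normalization the last pairs were 77 and 240 and 263 and 337, against 161 and 64 and 167 and 351 in the fit reported.

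Leaving out single arrays gave 0 to 1 called members in TC32 (0 without TC32 vehicle replicate 3), 1 to 2 in SKNMC (FOXO3 at 1.04 without NU7441 replicate 1), 0 to 1 for the difference and 2 to 3 between vehicles. Pathway calls ranged from 9 to 10 in TC32 and from 12 to 22 in SKNMC. Over all genes these fits called 1.96% to 3.18% higher and 3.66% to 4.15% lower in TC32. In SKNMC they called 2.77% to 5.22% higher and 4.7% to 7.45% lower. For the difference the shares were 0.575% to 4.3% and 0.23% to 2.1%, and between vehicles 1.08% to 1.95% and 2.87% to 3.03%. No pairing by replicate number was seen. With the numbers as a replicate block, the counts of calls over all genes were 788, 1112, 190 and 518 against 788, 1105, 225 and 518. No member's call changed. The 4 members past the adjusted p in TC32 with no fold minimum include IGF1R, which passed the filter through vehicle arrays alone. IGF1R, INSR and ATR lay at or near background, where the array limits what fall can be measured.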
